A study of Mus musculus with 52 samples.

Results

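The 34 genes described here encode chaperones of the endoplasmic reticulum (ER) and parts of the unfolded protein response, followed in the suprachiasmatic nucleus (SCN) of mice exposed to light at night. They were taken by name from the 2 deposited tables of raw counts, with the condition of 10 or more counts in at least 2 libraries. All 34 met it in both tables, which list 21999 genes, of which 14963 in the light-pulse table and 15170 in the Npas4 table met the same condition. Male mice of 11 to 12 weeks were used, and each library pooled 6 pairs of SCN. In the light-pulse experiment wild-type mice were left in the dark and sampled at circadian time (CT) 17, in 4 libraries, or at CT23, in 2 libraries. The others received light from CT17 for 0.5 h (4 libraries), or for 1 h, 3 h or 6 h (2 libraries each). In the Npas4 experiment, mice labelled KO (Npas4-/-) and wild-type (WT) littermates were either kept in the dark or given 1 h of light at CT17, with 3 libraries in each of the 4 groups. The KO mice are described as Npas4 null, with no driver or cell type named, and the light-pulse mice carry no named allele.

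Secretory and membrane proteins fold in the ER with the help of HSP70 and HSP90 chaperones, the lectins calnexin and calreticulin, DnaJ co-chaperones and protein disulfide isomerases. When unfolded proteins accumulate, the membrane sensors IRE1 (Ern1), PERK (Eif2ak3) and ATF6 activate the transcription factors XBP1, ATF4, CHOP (Ddit3) and the cleaved form of ATF6, which raise chaperone and degradation genes. The SCN holds the circadian pacemaker, and its neurons make and release neuropeptides, which pass through the ER. Creb3l1, also called OASIS, is an ER-membrane transcription factor related to ATF6 and is known from cells with heavy secretory traffic.

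The ER stress element, abbreviated ERSE, is a sequence to which NF-Y and ATF6 or XBP1 are known to bind. The members were taken by name as genes of this response, so its share among them is not an independent finding. The promoters of 30 of the 34 genes were matched to RefSeq sequence (GRCm38.p6, from 250 bases before to 50 bases after the start). Hyou1, Manf, Atf6 and Creb3l1 were not matched. The ERSE, searched on both strands as CCAAT and CCACG with any 9 bases between them, was found in 9 of the 30 promoters and in 28 of all 16160 promoters searched (0.17%). The 9 genes were Hspa5, Hsp90b1, Calr, Canx, Dnajc3, Pdia6, Creld2, Syvn1 and Derl3. The matches of 6 of them follow, 5′ to 3′ on the strand that reads CCAAT first, with the motif's fixed bases in capitals. Hspa5, Hsp90b1, Calr and Canx are shown as the most abundant of the 9, Dnajc3 as a DnaJ co-chaperone and Creld2 as a secreted protein.
Hspa5, chr2:34772016-34772052, plus strand: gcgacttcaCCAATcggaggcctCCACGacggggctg
Hsp90b1, chr10:86705629-86705665, minus strand: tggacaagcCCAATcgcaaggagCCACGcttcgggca
Hsp90b1, chr10:86705524-86705560, plus strand: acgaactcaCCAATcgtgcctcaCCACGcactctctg
Calr, chr8:84847066-84847102, plus strand: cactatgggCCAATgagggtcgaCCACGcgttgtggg
Canx, chr11:50325791-50325827, minus strand: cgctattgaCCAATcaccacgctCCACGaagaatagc
Dnajc3, chr14:118937818-118937854, plus strand: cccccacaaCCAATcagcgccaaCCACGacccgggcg
Creld2, chr15:88819511-88819547, minus strand: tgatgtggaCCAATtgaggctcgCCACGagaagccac

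The compact form ERSE-II, searched as ATTGG and CCACG with any 1 base between them, was found in 2 of the 30 promoters, those of Dnajb11 and Herpud1, and in 10 of the 16160 (0.06%). The match of Dnajb11 lies 7 bases after the start and that of Herpud1 52 bases before it. They are shown with the motif in capitals, since neither gene holds the longer element.
Dnajb11, chr16:22857843-22857871, plus strand: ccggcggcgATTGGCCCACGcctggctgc
Herpud1, chr8:94386368-94386396, plus strand: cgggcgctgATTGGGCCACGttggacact

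The C/EBP-ATF element TGATGNAA, a form of the site through which ATF4 and CHOP are known to act, was present in 5 of 30 promoters (16.7%) and in 4.0% of all. Besides Cdnf and Herpud1, these were the 3 members named as ATF4 and CHOP targets, Trib3, Chac1 and Asns. They were grouped by that role, so their matches are not an independent finding either. Those 3 matches are shown with the element in capitals.
Trib3, chr2:152344030-152344055, plus strand: ccgcccggcTGATGTAAacctgagct
Chac1, chr2:119351040-119351065, minus strand: tggcaggagTGATGCAAcggcaggga
Asns, chr6:7693216-7693241, minus strand: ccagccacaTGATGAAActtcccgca
The cAMP response element TGACGTCA was in none of the 30 windows and in 2.64% of all, whereas its shorter part TGACG was in 14 windows (46.7%) and in 26.9% of all. The UPRE core TGACGTGG was likewise in none, against 0.87% of all. The E-box CACGTG was in 4 windows (13.3%), those of Calr, Dnajb9, Crebrf and Derl3, against 9.12% of all. All motifs were searched on both strands, and the ERSE and ERSE-II share the stretch CCACG. That stretch alone was in 80.0% of the 30 windows and 41.44% of all, and CCAAT alone in 86.7% and 42.16%. Motif matches describe letters in these windows and do not show binding.

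Peak lists were also deposited for H3K4me3, which marks promoters in use, and H3K27ac, found at promoters and at enhancers in use. Each mark had 1 list from dark SCN and 1 from SCN after 1 h of light, made from 2 pairs of SCN. All 30 members with a matched start had an H3K4me3 peak within 1000 bases of it, in the dark and in the light, against 66.0% and 64.9% of the 16160 genes. Those 16160 genes, used for both marks, were not filtered by counts, whereas all members met the count condition. The background thus includes genes with few or no counts, and the share among genes meeting the condition was not computed. H3K27ac peaks lay at 22 of the 30 in the dark (48.4% of all genes) and at 21 of the 30 in the light (47.5%). The members without one in either list were Sdf2l1, Pdia4, Pdia6, Ern1, Trib3, Asns, Sel1l and Derl3, and in the light also Edem1, an ER mannosidase-like protein of degradation. Pdia6 and Derl3 thus hold an ERSE but no H3K27ac peak at the start. With 1 library a list, a difference of 1 gene between dark and light has no replicate check.

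Creb3l1 (chr2:91982328-92024170, mm10) had its strongest H3K4me3 peaks at its higher-coordinate end, with an authors' fold enrichment of 36.0 in the dark and 24.92 in the light. A second H3K4me3 peak lay inside the gene at chr2:92006957-92009201 in the dark, with a fold of 22.55, and at chr2:92007000-92009128 in the light, with a fold of 19.62. Its H3K27ac peaks, 3 in the dark and 4 in the light, all lay between positions 92006956 and 92009033, the same interior stretch. The strongest H3K27ac peak had a fold of 6.27 in the dark and 6.89 in the light, and no H3K27ac peak lay within 1000 bases of either end of the gene. Manf (chr9:106888753-106891938), which encodes a secreted ER stress protein, had peaks of both marks at an end in both conditions, as did Hyou1 and Atf6.

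Per unit of gene length, the members spanned a wide range of levels in the SCN. The deposited RPKM values, averaged over the 16 light-pulse libraries, were highest for the lectin calreticulin, Calr, at 215 ± 16.8 (SD), and the ER HSP90, Hsp90b1, at 210 ± 16. Canx stood at 160 ± 20.2, the disulfide isomerase Pdia3 at 151 ± 8.09 and Hspa5, the ER HSP70 called BiP, at 137 ± 18.0. The ranges of mean ± SD overlapped for Calr and Hsp90b1 and for Canx and Pdia3. The SDs span dark and light groups, and whether these genes differ within libraries was not tested. Of the transcription factors Atf4 was at 64.6 ± 8.78 RPKM and Xbp1 at 46.5 ± 7.55, whereas Ddit3 was at 7.93 ± 1.85. The sensors were low, with Creb3l1 at 10.9 ± 5.67, Atf6 at 7.29 ± 0.375, Eif2ak3 at 5.25 ± 0.459 and Ern1 at 3.57 ± 0.335 RPKM. Creb3l1 had the widest spread among the sensors. Derl3, Cdnf and Trib3 were the lowest at 1.46, 0.794 and 0.14 RPKM, and Trib3, a pseudokinase induced by CHOP, had only 1 to 11 counts in any light-pulse library. Trib3 did not pass the filter for testing there, which left 33 members among 14524 genes. In the Npas4 experiment all 34 were among the 15001 genes tested, and the top 5 were the same genes, led by Hsp90b1 at 175 ± 15.3 RPKM.

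Library totals were 12477382 to 15369985 counts in the 12 light-pulse libraries without a suffix, 27413860 to 30149286 in the 4 with the suffix s, and 26638939 to 32097975 in the Npas4 experiment. The suffix marks libraries 1s and 2s of dark CT17 and of 0.5 h light. By the labels these are batch 2, libraries 1 and 2 of the same groups are batch 1, and the libraries of the 3 longer pulses are batch 2 without the suffix. Every dark CT17 library of batch 2 therefore carries the suffix, and the suffix and the light duration are partly aligned. Light-pulse differences were fitted once with a term for the label batch and once with a term for the suffix in its place, and the second value is given beside the first. The 10 oligodendrocyte markers moved along: at 1 h 10 of 10 were called lower than in dark CT17 by the first fit and 0 of 10 by the second. Their summed level was 7840 to 9180 CPM (counts scaled to the library total) in dark CT17, 4260 to 6250 at 1 h and 6180 to 6770 at 3 h. The 10 SCN neuron markers summed to 872 to 1400 CPM over the light-pulse libraries and no marker was at 0 in all libraries of a group. The part of these shifts in the results below was not tested, and in bulk RNA fewer cells of a type and less RNA per cell cannot be told apart.

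After 0.5 h of light no member was called by edgeR's quasi-likelihood test at an adjusted p of 0.05, against 0.441% of all genes in the label batch fit, also 0.441% by both fits, and 0.468% in the suffix fit. Unadjusted p-values under 0.05 were found for 2 members, Atf4 and Ddit3, a count for which the share of all genes was not computed. DESeq2 called 0. All 33 log2 differences lay within 0.3 of 0, from -0.16 to 0.23. The immediate response to light was otherwise present in these libraries, since Npas4 stood at 42.9 to 51.1 CPM after 0.5 h and at 9.27 to 11.5 CPM in dark CT17.

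Creb3l1 was the member with the largest response. In dark CT17 it measured 16.9, 19.1, 17.7 and 20.2 CPM in libraries 1, 1s, 2 and 2s, and after 0.5 h 18.9, 23.9, 18.7 and 20.3 CPM. After 1 h it measured 37.9 and 30.0 CPM, after 3 h 63.0 and 61.3, and after 6 h 38.7 and 36.0. In dark CT23, at the clock time when the 6 h pulse ended, it measured 19.8 and 15.4 CPM. Every library of 1 h, 3 h and 6 h lay above every dark library, and the 3 h libraries lay above all others.

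**Figure D1:**
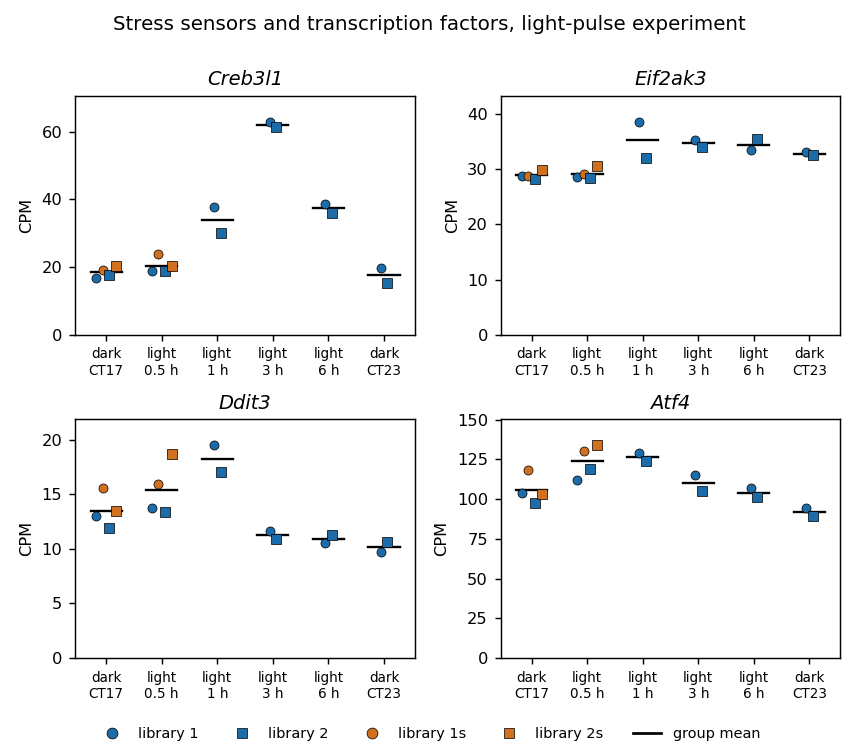
CPM of Creb3l1, Eif2ak3, Ddit3 and Atf4 (vertical axes, linear, from 0) in each light-pulse library, by group along the horizontal axis. Points are single libraries, blue without and orange with the suffix s, and bars are group means. Creb3l1 reaches 61.3 to 63.0 CPM at 3 h against 16.9 to 20.2 in dark CT17, whereas Ddit3 has its highest mean at 1 h.

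At 1 h the log2 difference of Creb3l1 from dark CT17 was 0.83 ± 0.12 (SE; edgeR adjusted p = 0.00126; 0.99 and adjusted p = 7.36e-05 with the suffix term). In that comparison 2 of 33 members were called, Creb3l1 and Eif2ak3, against 8.39% of all genes, and 1, Creb3l1, by both fits against 1.17%. At 3 h the difference was 1.70 ± 0.12 (edgeR adjusted p = 7.65e-07; 1.86 with the suffix term). There 7 of 33 members were called against 11.5% of all genes, and 3 by both fits (Creb3l1, Manf and Sdf2l1) against 2.64%. No dark group was measured at CT20, when the 3 h pulse ended. Clock time therefore also differs in this 3 h comparison, as it does between light groups. At 6 h Creb3l1 exceeded dark CT23 by 1.04 ± 0.15 (edgeR adjusted p = 0.0025; 1.09 with the suffix term). It was the only member called there in each fit, against 1.01% of all genes in the label batch fit, 1.41% in the suffix fit and 0.957% by both. Between light groups Creb3l1 rose from 0.5 h to 1 h by 0.67 ± 0.12 (edgeR adjusted p = 0.0095), where it was again the only one of 33 called in each fit, against 7.27% of genes in the label batch fit, 0.496% in the suffix fit and 0.475% by both. It rose further from 1 h to 3 h by 0.87 ± 0.13 (edgeR adjusted p = 0.00275), as 1 of 3 members called by both fits against 1.09% of genes, the share being the same for the label batch alone. It then fell by 0.73 on the log2 scale from 3 h to 6 h (SE 0.13; edgeR adjusted p = 0.0204), the only one of 33, against 0.53% of genes in the label batch fit and 0.523% by both fits. Without library 1 of 1 h the 1 h difference was 0.65 (edgeR adjusted p = 0.0527) and that from 0.5 h was 0.50 (0.151). The rise from 0.5 h was 0.63 without library 2s of 0.5 h (0.058), and the rise from 1 h to 3 h was 0.72 without library 2 of 1 h (0.0711). With any 1 of its 4 libraries left out, the fall from 3 h to 6 h was 0.69 to 0.78 in size and was no longer called (adjusted p from 0.129 to 0.228). The 3 h and 6 h calls against the dark were kept without any single library.

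Eif2ak3 (chr6:70844484-70905241), the PERK kinase that phosphorylates eIF2alpha, moved far less. It measured 28.7, 28.8, 28.3 and 29.9 CPM in dark CT17 and 28.6, 29.1, 28.4 and 30.5 CPM after 0.5 h. After 1 h it measured 38.6 and 32.1 CPM, after 3 h 35.3 and 34, after 6 h 33.4 and 35.4, and in dark CT23 33.1 and 32.5. The 1 h, 3 h and 6 h libraries thus lay above dark CT17, but library 2 of 1 h lay below both libraries of dark CT23. The 1 h difference was 0.27 ± 0.08 (edgeR adjusted p = 0.0425), and 0.32 (0.0651) by the suffix fit. Without library 1 of 1 h it was 0.13 with an adjusted p of 0.423, and leaving out any of the 4 dark CT17 libraries also ended the call. Ern1, the IRE1 kinase and nuclease that splices Xbp1 mRNA, was called higher at 3 h with the label batch only (0.33 ± 0.09, edgeR adjusted p = 0.0283; 0.055 with the suffix term). It measured 33 and 36.3 CPM at 3 h and 25.3 to 29.8 in dark CT17. Atf6, the sensor that is cut in the Golgi to free a transcription factor, differed by 0.19 at 3 h (edgeR adjusted p = 0.0697) and was called in no comparison by the label batch or the suffix fit.

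Among the transcription factors Ddit3 (chr10:127290793-127296291), which encodes CHOP, had its highest mean at 1 h. It measured 13.0, 15.6, 11.9 and 13.5 CPM in dark CT17 and 13.7, 15.9, 13.4 and 18.7 CPM after 0.5 h. After 1 h it measured 19.5 and 17 CPM, after 3 h 11.6 and 10.9, after 6 h 10.5 and 11.3, and in dark CT23 9.73 and 10.6. Both 1 h libraries lay above all of dark CT17, and both 3 h libraries lay below it. Ddit3 fell by 0.70 on the log2 scale from 1 h to 3 h (SE 0.13; edgeR adjusted p = 0.0113, and 0.00765 with the suffix term). The call was lost without library 1 of 1 h (0.164), library 1 of 3 h (0.0743) or library 2 of 3 h (0.14). Against dark CT17 its 1 h difference depended on the term, at 0.31 (edgeR adjusted p = 0.0915) in the label batch fit and 0.59 (0.0116) in the suffix fit. At 3 h Ddit3 was called lower with the label batch (-0.39, edgeR adjusted p = 0.0425) and not with the suffix term (-0.11, 0.718).

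Atf4 (chr15:80255184-80257545), the factor translated when eIF2alpha is phosphorylated, measured 97.2 to 118 CPM in dark CT17, 112 to 134 after 0.5 h, 129 and 124 after 1 h, and 89.3 to 115 in the other groups. Its 1 h difference was 0.20 (edgeR adjusted p = 0.124) in the label batch fit and 0.35 (0.0192) in the suffix fit. Xbp1 was called lower at 3 h with the label batch (-0.35, edgeR adjusted p = 0.021) but not with the suffix term (-0.09, 0.631). Its 4 suffix libraries stood at 179 to 184 CPM, above the 123 to 160 CPM of all 12 others. The counts are per gene, so spliced and unspliced Xbp1 are not separated. Crebrf, a regulator of CREB3 family proteins, was called in no comparison by either of these fits.

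Manf and Sdf2l1 were the members called lower than dark CT17 by both fits. Manf measured 121, 129, 105 and 124 CPM in dark CT17, 115, 133, 128 and 131 after 0.5 h, and 123 and 110 after 1 h. It measured 88.3 and 90.0 CPM after 3 h, 87.5 and 80.8 after 6 h, and 84.0 and 81.8 in dark CT23. The 3 h, 6 h and CT23 libraries all lay below every earlier library, with no overlap. At 3 h Manf differed from dark CT17 by -0.48 ± 0.08 (edgeR adjusted p = 0.00253; -0.36 and 0.0165 with the suffix term). Dark CT23 differed from dark CT17 by -0.53 ± 0.08 (edgeR adjusted p = 0.00876; -0.46 and 0.0194 with the suffix term), and without library 2 of CT23 by -0.44 (0.274). After 6 h Manf differed from dark CT23 by -0.03, with a 95% interval from -0.23 to 0.17. A 3 h pulse ends at CT20, for which no dark group was measured, so light and clock time cannot be told apart for the fall at 3 h.

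**Figure D2:**
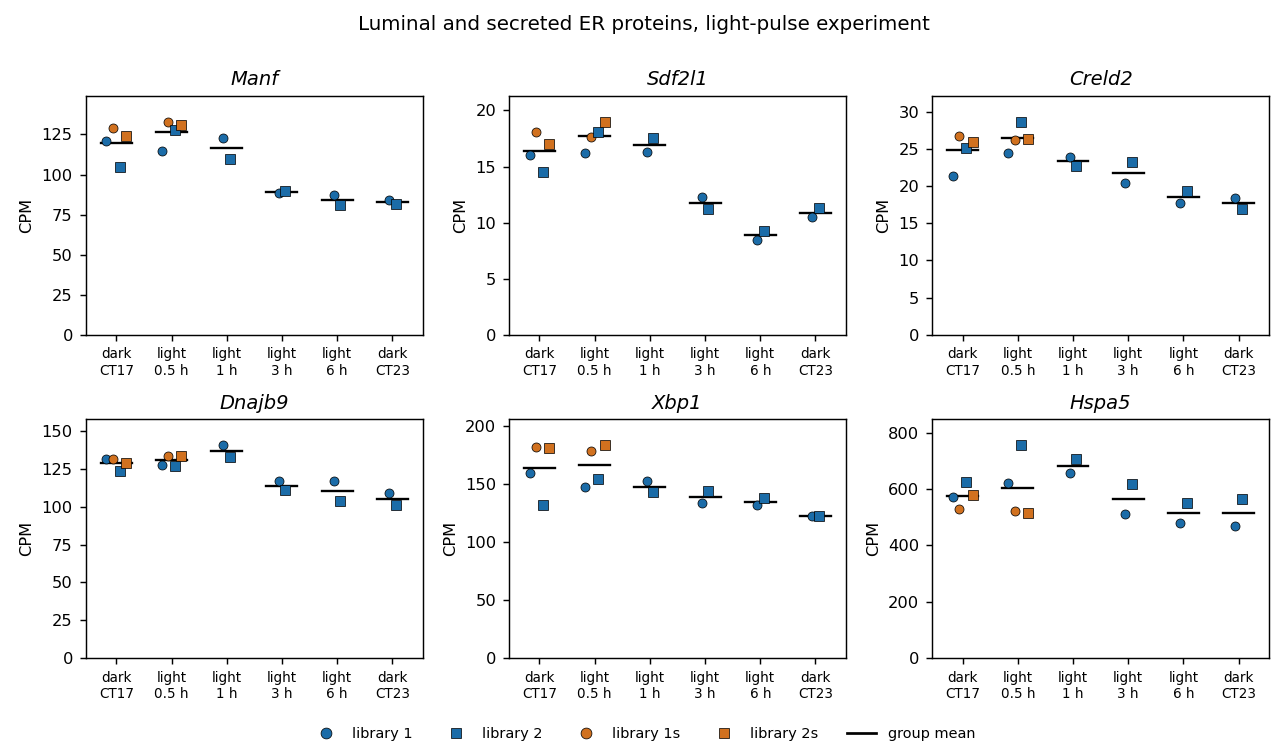
CPM of Manf, Sdf2l1, Creld2, Dnajb9, Xbp1 and Hspa5 (vertical axes, linear, from 0) in each light-pulse library by group, with bars for group means and orange points for libraries with the suffix s. Manf and Sdf2l1 are lower in the 3 h, 6 h and dark CT23 libraries than in every earlier library, and Xbp1 is highest in the orange libraries.

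Sdf2l1 (chr16:17130138-17132383), a luminal partner of ER DnaJ proteins, followed a like course. It measured 16, 18.1, 14.5 and 17 CPM in dark CT17, 16.2, 17.6, 18.1 and 19 after 0.5 h, and 16.3 and 17.5 after 1 h. It measured 12.3 and 11.2 CPM after 3 h, 8.45 and 9.25 after 6 h, and 10.5 and 11.3 in dark CT23. Again the 3 later groups lay below the 3 earlier ones without overlap. At 3 h the difference from dark CT17 was -0.55 ± 0.10 (edgeR adjusted p = 0.00354; -0.41 and 0.0466 with the suffix term), and without library 2 of 3 h -0.48 (0.0769). From 1 h to 3 h Sdf2l1 fell by 0.52 on the log2 scale (SE 0.11; edgeR adjusted p = 0.032; 0.0244 with the suffix term), a call that was lost without any 1 of the 4 libraries. The 6 h libraries lay below those of dark CT23, with a difference of -0.37 (95% interval -0.63 to -0.12) that was not called (edgeR adjusted p = 0.21; 0.356 with the suffix term).

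Comparing the 2 dark groups, 3 of 33 members were called lower at CT23 than at CT17, against 0.475% of all genes called in either direction, and 1, Manf, by both fits, against 0.241%. The others were Sdf2l1 (-0.59, edgeR adjusted p = 0.0126; 0.0662 with the suffix term) and Creld2, a secreted ER stress protein (-0.50, edgeR adjusted p = 0.0482; 0.117 with the suffix term). Sdf2l1 lost its call without library 1s of CT17 (0.0624) or library 2 of CT23 (0.303). Creld2 stood at 18.4 and 17 CPM at CT23 and at 21.4 to 26.8 CPM in dark CT17. The co-chaperone Dnajb9 stood at 109 and 101 CPM against 124 to 132, without overlap, but was not called (-0.30, edgeR adjusted p = 0.0646). Of the 33 members 21 were lower at CT23 and 12 higher, with a median log2 difference of -0.109 against -0.013 over all genes. The number of members called ran from 0 without library 2 of CT23 (0.0543% of all genes) to 10 without library 1 of CT23 (13.4%), so it moved with the calls over all genes and depends on single libraries. The summed oligodendrocyte markers were also lower in dark CT23 without overlap, at 6300 to 7330 CPM against 7840 to 9180 in dark CT17, although 0 of the 10 markers were called by either fit. Their part in these differences was not tested.

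For the main chaperones the differences with light were small. Hspa5 measured 570, 530, 623 and 580 CPM in dark CT17, 658 and 706 after 1 h, and 512 and 617 after 3 h. Its 1 h difference was 0.32 (95% interval 0.03 to 0.61; edgeR adjusted p = 0.152) in the label batch fit and 0.11 in the suffix fit. At 3 h it was 0.05 (95% interval -0.25 to 0.34). Sdf2l1 was grouped here with the HSP70, HSP90 and lectin chaperones. Of these 6 genes only Sdf2l1 was called in any of the 8 light-pulse comparisons by the label batch or the suffix fit. The chaperones Hspa5, Hsp90b1, Hyou1, Calr and Canx were called in none of them. None of the 3 DnaJ co-chaperones (Dnajb9, Dnajb11 and Dnajc3) and none of the 5 disulfide isomerases and cyclophilin B (P4hb, Pdia3, Pdia4, Pdia6 and Ppib) was called in them. At 1 h the 6 genes of the chaperone group, Sdf2l1 included, had log2 differences from -0.03 to 0.41 in the label batch fit. In the suffix fit these were from 0.04 to 0.12, so the 1 h values of this group depended on that choice. With the library number as a block beside the label batch, 9 of 33 members were called at 1 h, against 15.2% of all genes. They included the chaperones Hspa5 (0.34, edgeR adjusted p = 0.033), Hsp90b1, Hyou1, Canx, Dnajc3 and Pdia4, all higher. Whether the number pairs libraries of the light-pulse experiment was not tested. Among the degradation genes only Edem1 was called, lower at 3 h with the label batch (-0.32, edgeR adjusted p = 0.0492; 0.312 with the suffix term). Herpud1, Sel1l, Syvn1 and Derl3 were called in none. The ATF4 and CHOP targets Chac1, which degrades glutathione, and Asns, which makes asparagine, differed by 0.05 to 0.13 at 1 h and 3 h in the label batch fit and were not called. The 11 members with an ERSE or ERSE-II had a median log2 difference of 0.02 at 3 h and the 18 tested members with neither -0.00, or -0.09 and -0.04 with the suffix term.

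**Figure D3:**
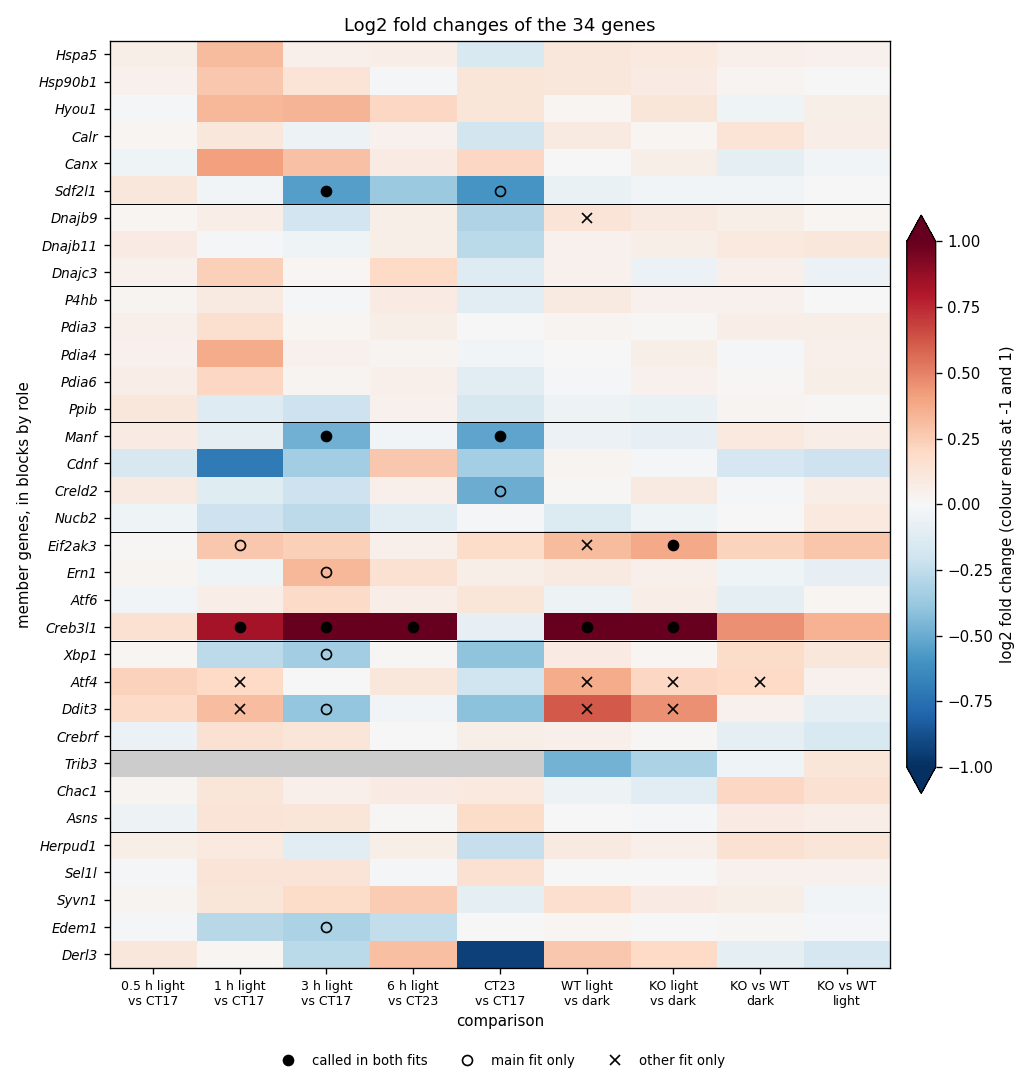
Log2 fold changes of the 34 genes (rows, in blocks by role) in 9 comparisons (columns), red for higher and blue for lower, with the colour ending at -1 and 1 and grey for not tested. Filled circles mark calls by both fits, open circles by the main fit alone and crosses by the other fit alone (suffix term in the light-pulse columns, replicate block in the Npas4 columns). Creb3l1 is called in 5 of the 9 columns, with a largest value of 1.70.

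Related genes outside the set were taken from lists of the same pathways. Over all genes 4.39% were called higher at 1 h and 6.4% at 3 h, or 1.11% and 2.2% with the suffix term, and 3.99% were called lower at 1 h and 5.06% at 3 h. Of 51 other genes of ER entry and folding, 2 were called higher and 1 lower at 1 h, and 5 higher and 2 lower at 3 h. With the suffix term these became 1 and 0 at 1 h, and 0 and 0 at 3 h. Txndc11, a thioredoxin-domain protein of the ER, was called at 1 h by both fits (0.74 ± 0.07, edgeR adjusted p = 8.14e-06), and fell again by 0.69 on the log2 scale from 1 h to 3 h. Ppp1r15a, also called GADD34, which directs dephosphorylation of eIF2alpha and is a target of ATF4 and CHOP, was called after 0.5 h (1.03 ± 0.07, edgeR adjusted p = 3.46e-07) and 1 h (0.77 ± 0.09). Of 19 other genes of the sensors and integrated stress response 4 were called higher at 1 h (3 with the suffix term) and none lower. None of 18 other ATF4 targets was called at 1 h, and 3 were called higher at 3 h (1 with the suffix term, where 1 was lower). Of 20 other degradation genes 3 were called higher at 3 h, and 1, the mannosidase Man1b1, with the suffix term. Of 15 cytosolic heat shock genes 5 were called higher at 1 h, and 1, the HSP70 co-chaperone Dnajb1, with the suffix term.

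In the Npas4 experiment Npas4 itself was counted in all 12 libraries. In the light it measured 13.7, 10.7 and 14 CPM in WT and 4.55, 7.63 and 5.19 CPM in KO, without overlap. In the dark it measured 8.64, 8.20 and 8.34 CPM in WT and 5.27, 10.1 and 10.4 CPM in KO, so 2 libraries labelled KO were above the WT range. Which part of the gene is missing is not given in the sources used here, and counts over the whole gene cannot check the genotype if the rest is still transcribed.

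Light for 1 h raised Creb3l1 in both genotypes. In WT it measured 9.52, 12.9 and 11.2 CPM in the dark libraries 1, 2 and 3 and 34.5, 23.2 and 26.9 CPM in the light. In KO it measured 13.0, 18.1 and 15.3 CPM in the dark and 32.3, 39.8 and 36.0 CPM in the light. Light and dark did not overlap in either genotype. The log2 difference was 1.33 ± 0.16 in WT (edgeR adjusted p = 0.000296) and 1.22 ± 0.16 in KO (edgeR adjusted p = 0.000812). The difference between these responses, KO minus WT, was -0.11 with a 95% interval from -0.60 to 0.38. Creb3l1 was the only one of 34 members called in WT, against 2.57% of all genes, and 1 of 2 in KO, against 1.56%, the other being Eif2ak3.

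**Figure D4:**
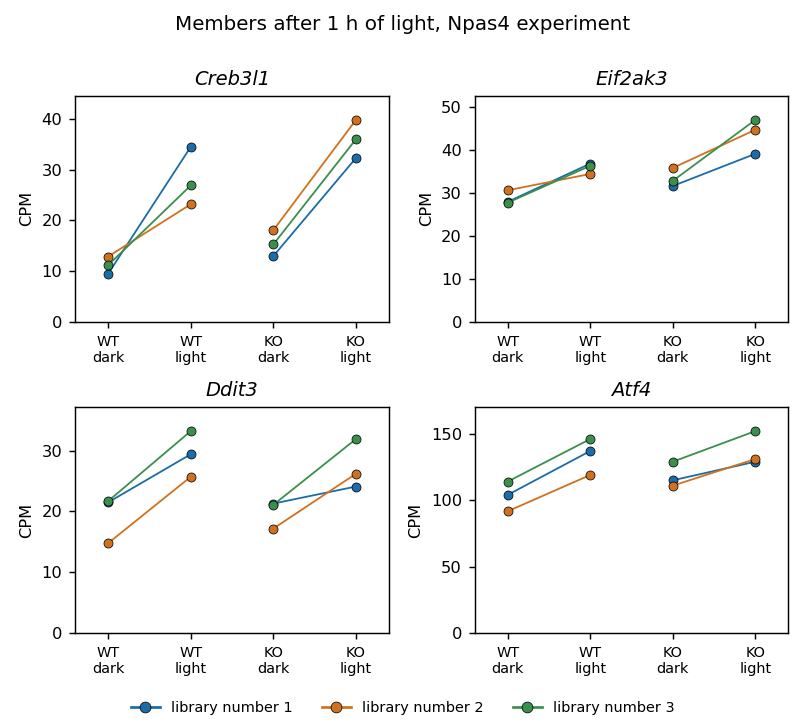
CPM of Creb3l1, Eif2ak3, Ddit3 and Atf4 (vertical axes, linear, from 0) in the 12 libraries of the Npas4 experiment. Points are libraries, coloured by number, and lines join dark and light libraries of the same number and genotype. All 6 lines rise for Creb3l1, Eif2ak3, Ddit3 and Atf4.

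With the replicate number as a block, which compares libraries of the same number, 5 members were called higher in WT light against 5.03% of genes and 4 in KO light against 3.01%. Those of KO were Creb3l1, Eif2ak3, Ddit3 and Atf4, and WT added Dnajb9. That same-numbered libraries are paired was inferred from these same data and is not in the labels. Eif2ak3 measured 28, 30.7 and 27.8 CPM in WT dark and 36.9, 34.5 and 36.4 in WT light, and 31.7, 35.9 and 32.9 CPM in KO dark and 39.2, 44.8 and 47.1 in KO light. Dark and light did not overlap in either genotype. The difference was 0.32 ± 0.08 in WT (edgeR adjusted p = 0.0534, and 0.0142 with the block) and 0.38 ± 0.08 in KO (0.0239, and 0.00529 with the block). Without the block, the KO call was lost on leaving out libraries 1 or 3 of KO dark or 2 or 3 of KO light (adjusted p from 0.0825 to 0.127). Ddit3 measured 21.5, 14.8 and 21.7 CPM in WT dark and 29.4, 25.7 and 33.2 in WT light, and 21.3, 17.2 and 21.1 CPM in KO dark and 24.1, 26.2 and 31.9 in KO light. The difference was 0.61 in WT (edgeR adjusted p = 0.066, and 0.00127 with the block) and 0.46 in KO (0.311, and 0.0152 with the block, where it was 0.47). Atf4 measured 104, 91.7 and 114 CPM in WT dark and 137, 119 and 146 in WT light, and 115, 111 and 129 CPM in KO dark and 129, 131 and 152 in KO light. The difference was 0.37 in WT (edgeR adjusted p = 0.0951, and 0.000132 with the block) and 0.21 in KO (0.68, and 0.0175 with the block). All 4 genes were higher in light in 6 of 6 same-number pairs, and dark and light did not overlap for Ddit3 in either genotype or for Atf4 in WT, whereas for Atf4 in KO the ranges met at 129 CPM. Dnajb9, which encodes the BiP co-chaperone ERdj4, rose in WT by 0.13 with the block (edgeR adjusted p = 0.0487; 0.254 without), from 85.3 to 88.1 CPM in the dark to 93.4 to 95.9 in the light. The other 29 members were called in neither genotype by either fit, Hspa5 differing by 0.11 in WT and 0.10 in KO.

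No member was called for a light response that differed between the genotypes. Of 34 members 0 were called for the difference of responses by edgeR, with or without the block, against 0.0133% of genes (2 genes), 0 had an unadjusted p under 0.05 and DESeq2 called 0. All 34 estimates lay within 0.3 of 0, from -0.16 for Atf4 to 0.15 for Trib3. The median width of their 95% intervals was 0.60 with 3 libraries a group, so differences within those intervals are not excluded. The smallest difference that could have been called was not computed.

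Between genotypes no member was called in the dark (against 0.753% of genes) or in the light (0.467%) by edgeR without the block. DESeq2 called 0 in both, and unadjusted p-values under 0.05 were found for 4 members in the dark and 2 in the light. The share of all genes with such p-values was not computed for any comparison. Creb3l1 was nominally higher in KO, by 0.46 (95% interval 0.10 to 0.82; edgeR adjusted p = 0.38) in the dark and 0.35 (0.02 to 0.68; 0.769) in the light. In the dark all KO libraries lay above the WT range, 13.0 to 18.1 against 9.52 to 12.9 CPM, and in the light the ranges overlapped. Eif2ak3 was 0.22 higher in KO in the dark (0.381) and 0.28 higher in the light (0.247), without overlap in either. With the block 1 of 34 members was called in the dark, Atf4, against 3.09% of genes, higher in KO by 0.20 ± 0.04 (edgeR adjusted p = 0.0266; 0.607 without the block). Its unpaired values overlapped, at 111 to 129 CPM in KO and 91.7 to 114 in WT. The 10 SCN neuron markers summed to 1980 to 3030 CPM in KO dark and 1360 to 1940 in WT dark, and to 2370 to 2750 in KO light and 1620 to 2180 in WT light. These markers did not move together. In the dark Vip, Avp, Nms, Prok2, Rora and Rgs16 were higher in KO than in the WT library of the same number. By the same comparison Grp, Six6, Lhx1 and Syt10 were lower in KO, so the sum is not a measure of SCN content. Within each of the 4 groups Creb3l1 ordered the 3 libraries as the summed markers did, the only member of 34 to do so in all 4. The share of all genes with that order was not computed, so the order is not shown to be particular to Creb3l1. The part of these markers in the Creb3l1 differences between genotypes was not tested. Of 51 other genes of ER entry and folding, 1, the signal peptidase subunit Spcs3, was called in KO against WT without the block, higher in the dark (0.41 ± 0.05, edgeR adjusted p = 0.00223) and in the light (0.32 ± 0.05, 0.0156).

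For several chaperones the level went with the library number in every condition. Hspa5 in libraries 1, 2 and 3 measured 581, 709 and 564 CPM in WT dark, 639, 730 and 630 in WT light, 556, 770 and 591 in KO dark, and 619, 777 and 660 in KO light. Library 2 was thus the highest in every group. The same held in all 4 groups for 12 of the 34 members, namely Hspa5, Hsp90b1, Hyou1, Calr, Canx, Dnajc3, P4hb, Pdia3, Pdia4, Nucb2, Asns and Sel1l. It held in no group for 7, namely Dnajb9, Ppib, Manf, Creld2, Atf4, Ddit3 and Derl3. Outside the set, Hspa8, Hsp90ab1 and Vcp also had library 2 as the highest in all 4 groups. Manf and Creld2 are secreted, and Ppib is the ER cyclophilin. Among light-pulse libraries without the suffix, library 2 exceeded library 1 in all 6 groups for 8 members, Hspa5, Hsp90b1, Hyou1, Calr, Canx, Dnajc3, Pdia4 and Asns, and all 8 are among the 12. For Hspa5 those pairs were 570 and 623 CPM in dark CT17, 621 and 756 at 0.5 h, 658 and 706 at 1 h, 512 and 617 at 3 h, 479 and 550 at 6 h, and 467 and 563 in dark CT23. The suffix libraries were lower than their unsuffixed partners in 4 of 4 pairs for 9 members, Hspa5 and Hsp90b1 among them, and higher in 4 of 4 for 10, Manf, Xbp1, Atf4 and Ddit3 among them. The shares of all genes with these orders of libraries were not computed, so the orders are not shown to be particular to the members. In the Npas4 experiment the 8 astrocyte markers also summed highest in library 2 of each group, at 3190, 3020, 3200 and 3410 CPM in KO dark, KO light, WT dark and WT light, against 2840 to 3100 in the other 8 libraries. Of these markers Slc1a3, Gja1, Aqp4 and Aldh1l1 were highest in library 2 of each group, S100b was lowest there, and Gfap, Aldoc and Fabp7 varied. The SCN neuron sum was also highest in library 2 of KO dark, KO light and WT dark, at 3030, 2750 and 1940 CPM. In WT light it was lowest in library 2, at 1620 CPM. In the light-pulse experiment the astrocyte sum was 3660 to 4100 CPM in the suffix libraries and 4200 to 4970 in the others. The part of cell content in these differences was not tested, and what the number stands for is not given in the sources used here.

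**Figure D5:**
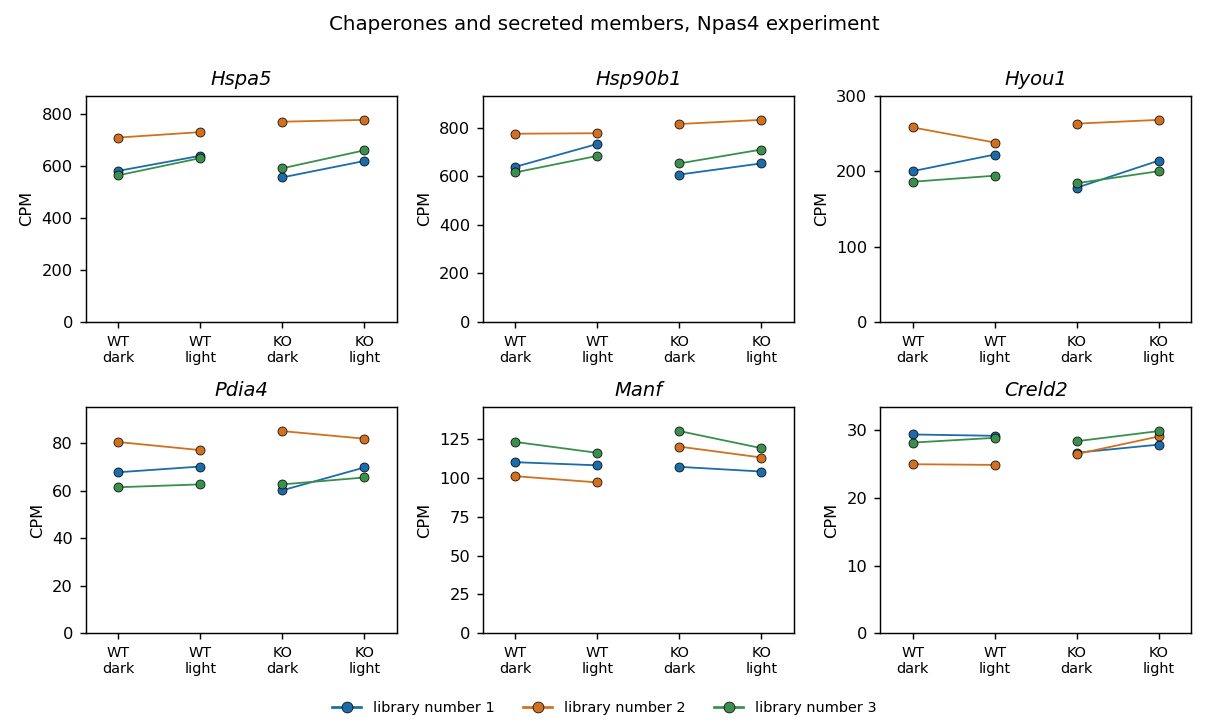
CPM of Hspa5, Hsp90b1, Hyou1, Pdia4, Manf and Creld2 (vertical axes, linear, from 0) in the 12 libraries of the Npas4 experiment, coloured by library number, with lines joining dark and light libraries of a number. Library 2 is the highest in all 4 groups for the first 4 genes and in none for Manf and Creld2.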

How the data were processed

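Bulk RNA-seq of 16 light-pulse and 12 Npas4-experiment libraries and 4 ChIP-seq peak lists were used. The single-nucleus and ChIP input samples were not used here. The authors' raw counts are whole numbers of reads for each gene symbol, and the RPKM values they deposited cover the same libraries. They also deposited peaks with a fold enrichment (a linear ratio) and a -log10 q-value per peak. Per the submitters' processing notes STAR 2.7.1a, HTSeq 0.9.1, MACS2 2.1.1 and build mm10 were used in the series, and with counting options and strand use not given, overlapping genes are uncertain.

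The tests used edgeR 4.0.16 under R 4.3.3 on the counts (quasi-likelihood F-test, TMM scaling, filterByExpr), each experiment fitted as a whole, with the label batch as a term in the light-pulse model and the groups alone in the Npas4 model. P-values were adjusted by Benjamini-Hochberg over all genes tested and called at 0.05. CPM use the TMM-scaled library total. Peaks were assigned to members within 1000 bases of the RefSeq start. The fit was tested on simulated counts that held no batch, suffix or pairing effect. That test therefore does not address the partial alignment of the suffix with light duration. Alternatives were a suffix term, both terms, DESeq2 1.42.0, no filter, a replicate block, summed libraries, and each library left out. Fits within a label batch or on the libraries without the suffix were added after seeing the data.

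The members, their roles and all lists were chosen with earlier results of these data known. Every member may be named, with values per library for those called in any comparison, in the light-pulse experiment by both the batch and the suffix fit. Members that were called only with the replicate block are given likewise because same-numbered libraries were taken as pairs, an inference explained below. From the other lists at most 2 genes a comparison were named, those with the smallest adjusted p among the called.

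Same-numbered libraries of the Npas4 experiment deviated together from their group means, with correlations over genes of 0.19, 0.33 and 0.36 for WT light and dark, 0.31, 0.60 and 0.19 for KO light and dark, and 0.39, 0.65 and 0.29 for KO and WT dark. Those numbers were therefore taken to pair the libraries. For KO and WT light the correlations were 0.01, 0.18 and 0.28, which was not taken as pairing. The labels do not state any pairing, so it was inferred from these same data, and a single block model served all groups. How libraries of a group relate to mice or days is not given, so the p-values reflect only the spread among these pools, which may be technical, and libraries with and without the suffix may share a pool.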

Additional observations from a re-analysis of the deposited data

Results flagged for a closer look

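Each member's values were checked for 1 library far from the other 3 in the groups of 4 libraries, dark CT17 and 0.5 h light, where chance alone marks about 1 in 20 groups. Of 68 checks 3 marked a library. Syvn1, the ubiquitin ligase of ER-associated degradation, was at 65.3 CPM in library 1 of dark CT17 and at 59.4 to 60.2 in the other 3. P4hb, a protein disulfide isomerase, was at 233 CPM in library 2 of 0.5 h light and at 186 to 194 in the others. Derl3, a derlin of the same degradation pathway, was at 3.35 CPM in library 1 of 0.5 h light and at 2.03 to 2.11 in the others. None of the 3 genes was called in a comparison with these groups. In library 2 of 0.5 h light the 8 fibroblast markers summed to 902 CPM, against 157 to 448 in the other 3 libraries, and the part of these markers in the value of P4hb was not tested.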

How the results depend on the processing

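None of the 31 gene results tested under the alternatives, each a member called in a comparison by the label batch fit, the suffix fit or the Npas4 block, changed direction. Between the label batch and suffix fits 5 of 33 members had opposite signs at 1 h, 9 at 3 h, and 5 each at 6 h, for dark CT23 against CT17 and from 0.5 h to 1 h. The share of all genes called is given in brackets after each number of members called. It was 2 at 1 h (8.39%), and 1 with both terms (0.42%), without a filter (6.19%), with libraries of a number summed (6.09%) and on the libraries without the suffix (0.827%), 5 within label batch 2 (17%) and 9 with the replicate block (15.2%). At 3 h it was 7 (11.5%), and 3 with the suffix term (3.24%), 1 with both terms (0.454%), 1 on the libraries without the suffix (1.37%) and 11 with the block (18.6%). For dark CT23 against CT17 it was 3 (0.475%), and 1 with the suffix term (0.269%), 0 with both terms (0.0551%), 0 within label batch 1 (0.00689%), 0 without suffix libraries (0.0208%), 6 within label batch 2 (11.7%), 5 with libraries summed (2.36%) and 5 with the block (0.971%). From 0.5 h to 1 h it was 1 (7.27%), and 0 with both terms (0.0413%), 3 by DESeq2 (10.7%), 5 with the block (16%) and 11 within label batch 2 (21.6%). From 1 h to 3 h it was 3 (1.09%), and 5 by DESeq2 (1.72%). In the Npas4 experiment it was 1 in WT light (2.57%), and 4 by DESeq2 (3.37%) and 5 with the block (5.03%). In KO light it was 2 (1.56%), and 4 with the block (3.01%). For KO against WT in the dark it was 0 (0.753%), and 1 with the block (3.09%). The block moved no other Npas4 count. In the light-pulse experiment whether the number pairs libraries was not tested, and only 2 numbers are shared between groups. With each library left out the counts ran from 0 to 2 at 1 h, 2 to 7 at 3 h, 1 to 2 at 6 h, 0 to 10 for CT23 against CT17, 0 to 2 from 0.5 h to 1 h, 1 to 1 from 1 h to 3 h, 0 to 0 from 3 h to 6 h, 1 to 2 in WT light and 1 to 2 in KO light. The cause of these shifts was not tested. Peak counts at starts moved by at most 2 members with a -log10 q of 5 or a window of 2000 bases.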
